A study of Mus musculus with 120 samples.

Results

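The nuclear receptor family was followed through the livers of 60 F2 mice, over every probe set that the platform annotation gives a single symbol among 33 receptor genes. Of 45037 probe sets on the MOE430A and MOE430B arrays, 87 were members, 53 on MOE430A and 34 on MOE430B, and they stood for 32 of the 33 genes. No probe set carried the symbol of *Nr1h2* alone, and 19 genes had several probe sets. The mice, 31 females and 29 males, came from an intercross of C57BL/6J and BTBR, and all were homozygous for the *ob* mutation of leptin, so all were obese and none was lean. They were killed at 14 weeks of age after a fast of 4 h. RNA from each liver went to 1 array of each type, and the mice were genotyped at 194 markers on 19 autosomes. Genotypes are written by the letters of the deposited table, with H for heterozygotes. The sources used here do not say which founder strain the letters A and B stand for.

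Nuclear receptors are transcription factors that bind DNA as monomers, homodimers or heterodimers and recruit coactivators or corepressors, in most cases as a ligand binds or leaves. In liver, the peroxisome proliferator-activated, liver X, farnesoid X, pregnane X and constitutive androstane receptors pair with retinoid X receptors and govern fatty acid oxidation, lipogenesis, bile acid handling and the clearance of foreign compounds. An array measures the mRNA of a receptor and not its ligand or its activity.

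Expression values are log2 units, so a difference of 1 is a doubling, and mice were compared only within a probe set. A probe set is called dim where its mean lies under the median of its array type. The median SD over the mice was 0.143 for the receptor probe sets of MOE430A, beside 0.133 for all probe sets, and 0.126 on MOE430B beside 0.1149. The labelled tissue was borne out by the hepatocyte list (albumin, transthyretin and other secreted proteins), whose 12 probe sets averaged 13.12 ± 0.126 (SD, n = 31) in females and 13.1 ± 0.0996 (n = 29) in males. Arrays of mice 167, 474 and 559 stood apart from the others of their type. For mice 223, 474 and 608, the 100 probe sets on both array types matched the MOE430A array best with some other mouse's MOE430B array. Own and best r were 0.5518 and 0.5676, 0.4163 and 0.4214, and 0.2592 and 0.3787. The best matches were the MOE430B arrays of mice 317, 111 and 517. The MOE430A arrays of mice 317, 111 and 517 matched their own MOE430B arrays best, at 0.5483, 0.6381 and 0.7664. For mouse 317 that is under the 0.5676 between its MOE430B array and the MOE430A array of mouse 223. Arrays of mice 223, 474 and 608 are said below to have looked crossed, but whether any were swapped was not tested. Mouse 343 carried pancreatic transcripts, with an acinar list 6.61 SD above the mean and the next mouse at 0.474 SD, and none of the 87 receptor probe sets lay more than 3 SD from its mean in that mouse. In mouse 474 3 of the 87 did and in mouse 559 1 did, and in mice 167, 223 and 608 none did.

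Linkage was scored as the highest LOD of a probe set over the genome, with 3.4 as the threshold. Of the 87 receptor probe sets, 14 from 11 genes reached it (16.1%), and 15.8% of all 45037 probe sets did. In permuted data 10.9% of probe sets reached the same score. A LOD of 5 was reached by 2 receptor probe sets, one of *Ppara* and one of *Esr1*, beside 2.1% of all. For 1 of 87 the highest score both reached 3.4 and fell on the chromosome that carries the gene, beside 2.97% of 33725 probe sets with a known autosome. At or above the median level of the array type, 4 of 47 receptor probe sets reached 3.4 (8.51%) beside 16.6% of all such probe sets. The 4 were of *Ppara*, *Thra*, *Rxra* and *Nr2f2*. The other linked receptor probe sets were all dim. Of dim probe sets, 10 of 40 from receptors reached 3.4, beside 3394 of all 22518. With p-values pooled over 5 permutations of the interval mapping scan, no probe set of any gene passed an adjusted p of 0.05, while 3672 had an unadjusted p under it. With 100 permutations of Haley-Knott regression, a faster approximation, 290 probe sets passed (0.644%), and 1 was a receptor probe set, of *Ppara*.

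**Figure D1:**
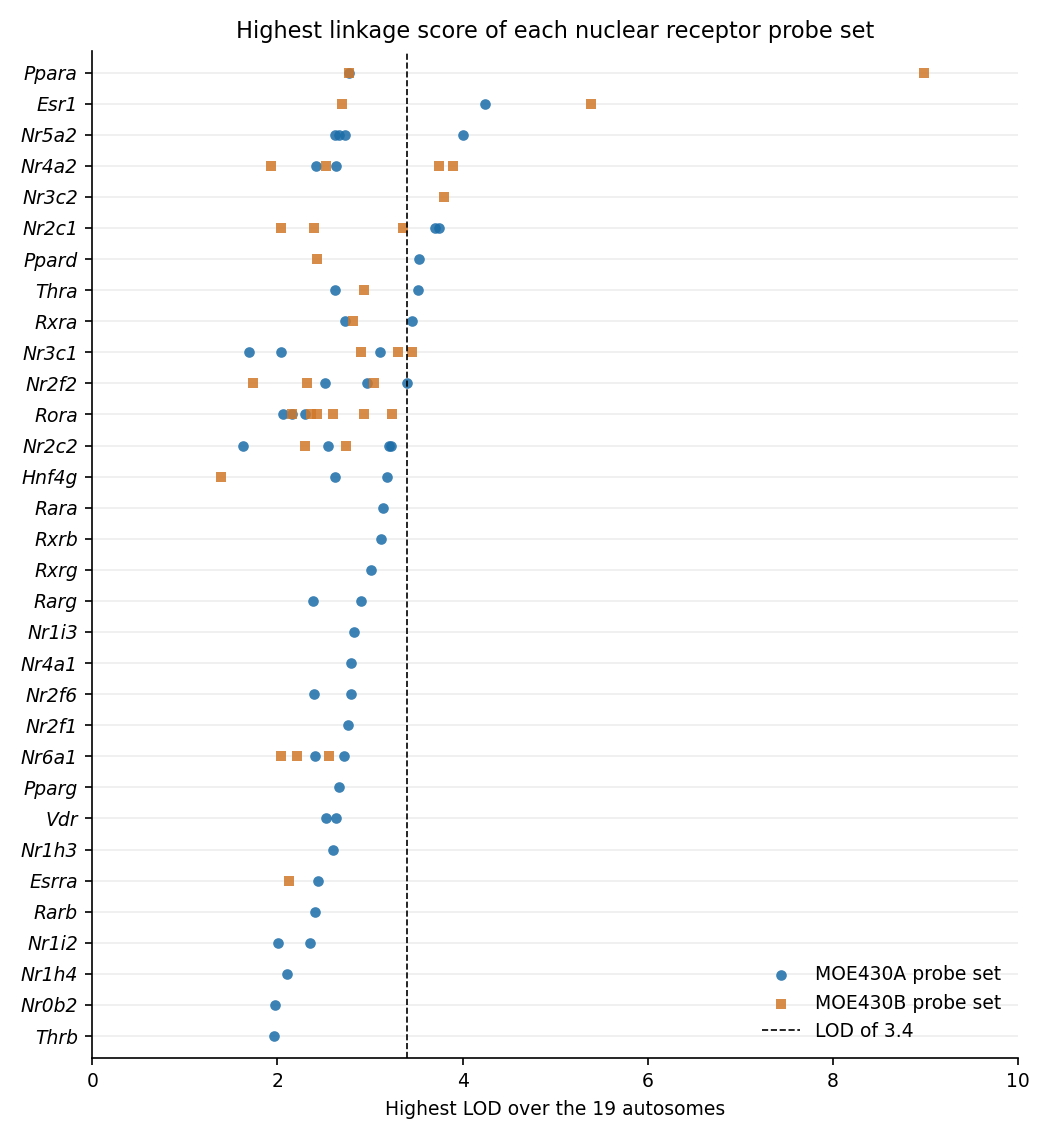
Highest LOD over 19 autosomes (x axis) for each of the 87 probe sets, by gene (y axis), with circles for MOE430A, squares for MOE430B and a dashed line at the threshold of 3.4. A single *Ppara* probe set lies far to the right at 8.99, while the other *Ppara* probe sets lie at 2.77 each.

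*Ppara* encodes the receptor that fatty acids activate and that drives fatty acid oxidation in liver during fasting. The gene lies on Chromosome 15 from 85734910 to 85806851 (RefSeq, GRCm38.p6), and the upstream window is shown because this was the receptor gene with a probe set linked to its own chromosome. Its 250 bases before a RefSeq start, chr15:85735526-85735775 on the plus strand, hold no AGGTCA, the hexamer that many nuclear receptors bind, on either strand.
*Ppara* upstream window: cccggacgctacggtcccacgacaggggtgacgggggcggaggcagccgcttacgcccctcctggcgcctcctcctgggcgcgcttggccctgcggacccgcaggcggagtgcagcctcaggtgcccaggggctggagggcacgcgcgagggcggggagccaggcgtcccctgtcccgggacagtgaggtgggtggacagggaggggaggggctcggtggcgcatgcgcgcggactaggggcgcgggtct

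*Ppara* was read by 3 probe sets, whose levels differed unequally between the same genotypes. For 1457721_at on MOE430B the highest LOD was 8.99, at 30 cM on Chromosome 15, and scores within 1.5 of it ran from 25 to 40 cM. The marker map is in cM and the gene position in bases, so their distance was not measured. Among the 11 mice of genotype A the values ran from 9.42 to 10.17 with a median of 9.8. The 34 heterozygotes ran from 8.68 to 10.06 with a median of 9.33, and the 15 mice of genotype B ran from 8.26 to 9.35 with a median of 8.87. Every mouse of genotype A thus lay above every mouse of genotype B, with heterozygotes spread over both. The means were 9.8 ± 0.248, 9.39 ± 0.372 and 8.84 ± 0.32 (SD), a log2 difference of 0.96 between A and B. In 100000 permutations of the mice the genome-wide p was 1e-05, the smallest that they can give. This permutation p, here and for the other linked probe sets, is that of the highest Haley-Knott score. That score can differ from the printed LOD. The p is genome-wide for 1 probe set and is not adjusted for the number of probe sets. For 1457721_at the pooled Haley-Knott permutations gave an adjusted p of 0.0366, and those of interval mapping gave 0.181. No other receptor probe set passed an adjusted p of 0.05 in either. Genotype A stood above B in both sexes, at 9.98 (n = 5) against 8.84 (n = 7) in females and 9.65 (n = 6) against 8.85 (n = 8) in males.

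At the same point of Chromosome 15, probe set 1439675_at, also on MOE430B, had a LOD of 2.29. It averaged 9.54 ± 0.26 in genotype A, 9.39 ± 0.413 in heterozygotes and 9.12 ± 0.289 in B, a difference of 0.42 with overlapping groups. Probe set 1449051_at on MOE430A, with a LOD of 0.69 there, averaged 11.6 ± 0.342, 11.47 ± 0.349 and 11.33 ± 0.549, a difference of 0.27. The MOE430B probe sets followed each other closely over the mice (r = 0.86), and the MOE430A probe set followed them less (r = 0.58 with 1439675_at and 0.52 with 1457721_at). The difference between the MOE430B probe sets in each mouse, examined after these values were seen, had a LOD of 10.41 at 33.6 cM of Chromosome 15, so their differences between genotypes were unequal. The probed sequences were not compared between the founder strains, so for 1457721_at a difference in transcript level and a difference in binding to the probes cannot be told apart.

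**Figure D2:**
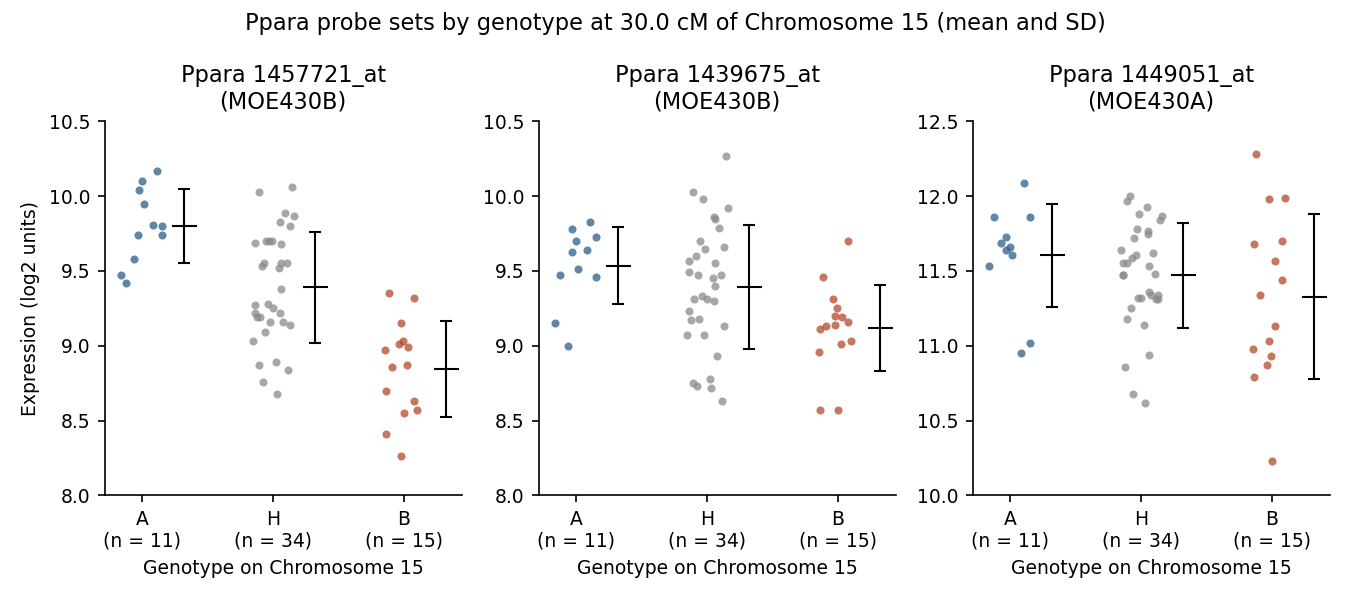
Expression (y axis, log2 units) of the 3 *Ppara* probe sets by genotype at 30 cM of Chromosome 15 (x axis), 1 point per mouse, with the mean and SD beside each group. The A and B groups separate for 1457721_at and overlap for the other two.

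No phenotype reached a LOD of 3.4 at that point. The LOD at 30 cM of Chromosome 15 was 1.29 for liver triglyceride, 0.81 for glucose, 0.21 for log10 insulin, 0.21 for log10 plasma triglyceride and 0.18 for body weight. The highest LOD of any measured PPARA target there was 1.41, for *Cpt2*. Over 15 target genes the median r was 0.25 with 1449051_at, 0.34 with 1439675_at and 0.28 with 1457721_at, and 12 of 15 were positive with each.

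For the MOE430A probe set the median r of *Ppara* with all probe sets was -0.1 and 35.8% were positive. The closest targets were *Vnn1*, a pantetheinase (r = 0.55), *Pex11a* of peroxisome division (0.52) and *Fabp1*, the liver fatty acid binding protein (0.48). At the other end were *Cpt2* (-0.28) and *Creb3l3* (-0.22). For *Cpt1a*, the carnitine palmitoyltransferase at the gate of mitochondrial oxidation, r was 0.59 in females and 0.08 in males. The genes most like *Ppara* over the 60 mice were *Fzd4* (r = 0.76), *Ttc3* (0.74) and *Hlf* (0.7).

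All 3 *Ppara* probe sets had a positive slope on liver triglyceride with an unadjusted p under 0.05, and none passed after adjustment. The slope of 1449051_at was 0.16 ± 0.0481 (SE) log2 units per SD of liver triglyceride (limma, adjusted p = 0.182), with r = 0.35 over 59 mice. By sex, 1439675_at was at 9.5 ± 0.363 in females and 9.19 ± 0.347 in males, a difference of 0.31 ± 0.0889 (SE) with an adjusted p of 0.06, and of 0.0469 when only probe sets at or above the median level were tested.

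*Pparg* encodes the receptor that directs fat storage in adipocytes and that is raised in fatty livers of obese mice. Its gene lies on Chromosome 6 from 115360879 to 115490404. RefSeq gives it 3 windows here, of which 2 hold the hexamer AGGTCA, in capitals below, in the 250 bases before the start; they are shown because *Pparg* was the receptor that followed liver triglyceride. The third, from 115421816, holds none.
*Pparg* upstream window, chr6:115360894-115361143, plus strand: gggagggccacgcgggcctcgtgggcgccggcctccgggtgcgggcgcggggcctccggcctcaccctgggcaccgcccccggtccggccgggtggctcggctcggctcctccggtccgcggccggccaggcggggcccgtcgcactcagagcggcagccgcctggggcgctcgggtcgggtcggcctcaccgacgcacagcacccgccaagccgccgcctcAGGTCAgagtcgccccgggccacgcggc
*Pparg* upstream window, chr6:115362099-115362348, plus strand: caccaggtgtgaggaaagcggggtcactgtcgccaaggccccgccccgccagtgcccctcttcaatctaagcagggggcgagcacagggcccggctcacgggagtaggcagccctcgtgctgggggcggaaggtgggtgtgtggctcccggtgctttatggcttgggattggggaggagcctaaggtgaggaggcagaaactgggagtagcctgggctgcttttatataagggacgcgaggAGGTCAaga
The counts that follow are over windows of 300 bases, which run on past the 250 shown. AGGTCA or its complement TGACCT stood in 9 of 45 windows of the receptor genes (20.0%) and in 4607 of 32851 windows of all genes (14.0%). The windows came from 30 receptor genes, *Nr1h2* among them, and 8 genes had a match. The direct repeats of this hexamer called DR1 and DR4, read on both strands, stood in none of the 45 and in 11 and 5 of all windows.

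*Pparg* rose with liver triglyceride. Its only probe set, 1420715_a_at, ran from 7.18 to 8.27 with a median of 7.67, while liver triglyceride ran from 85.3 to 1010.0 mg/g with a median of 573.0. In the 5 mice with the least liver triglyceride (85.3 to 220.0 mg/g) the values were 7.3, 7.35, 7.42, 7.18 and 7.44. In the 5 with the most (840.0 to 1010.0 mg/g) they were 7.87, 7.39, 7.62, 7.71 and 8.08, so only the lowest of these fell within the range of the former. The slope was 0.142 ± 0.0284 (SE) per SD, with an adjusted p of 0.0103 over all 45037 probe sets (limma with sex as covariate). It was the only receptor probe set to pass with any of 5 phenotypes, where 0.107% of all probe sets rose and 0.0977% fell with liver triglyceride. Before adjustment 7 of 87 receptor probe sets had a p under 0.05 with liver triglyceride (8.05%, beside 9.09% of all), 9 with glucose (10.3%, beside 4.65%), 9 with log10 insulin (10.3%, beside 7.64%), 6 with log10 plasma triglyceride (6.9%, beside 4.58%) and 3 with body weight (3.45%, beside 5.55%). After adjustment 0.00222% of all rose and 0.0244% fell with log10 insulin, none of them a receptor.

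The relation held at r = 0.5 over 59 mice (permutation p = 7e-05, two-sided, adjusted p = 0.00042 over 6 relations) with a rho of 0.5 (p = 6e-05). It was 0.47 without the 2 mice farthest from the median, 0.54 in females and 0.55 in males, and the test of a slope difference between the sexes gave an adjusted p of 0.993. Body weight, glucose and insulin gave no call. With plasma glucose at 10 weeks r was -0.43 (permutation p = 0.00065, adjusted p = 0.00195 over the same 6), -0.23 in females and -0.54 in males, but the slope with sex in the model had an adjusted p of 0.959 over all probe sets, and no probe set of any gene passed for glucose by limma, with 2096 at an unadjusted p under 0.05.

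The deposited RT-qPCR column for PPARg, a delta Ct against beta-actin, covered 50 mice. The sign of the column is not stated, so it was read from the genes with both measurements: r between array and delta Ct was 0.88 for *Scd1*, 0.89 for *Fasn*, 0.89 for *Pltp*, 0.65 for *Pck1*, 0.53 for *Gpam* and 0.45 for *Cpt1a*. All were positive, so the column was read as higher with more transcript. For *Pparg* itself r was 0.38 (permutation p = 0.00616, two-sided, adjusted p = 0.00994) and rho 0.45 (p = 0.00109). The mice farthest from the median, at -12.7 and -6.91, were both males, and without them r was 0.6 (p = 2e-05). Within females r was 0.67 (n = 25), and within males 0.22 (n = 25), where the RT-qPCR values spread more widely (SD 1.29 against 0.674).

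Liver triglyceride and the RT-qPCR values had an r of 0.24 (n = 49, permutation p = 0.0915, adjusted p = 0.11), 0.43 in females and 0.2 in males. The RT-qPCR measurement of *Pparg* therefore did not pass with liver triglyceride over these 49 mice. Without the mice whose arrays stood apart r was 0.29 (permutation p = 0.0467, not adjusted). Without those whose arrays looked crossed it was 0.25 (permutation p = 0.0964). The males at -12.7 and -6.91 were kept throughout, and the relation without them was not tested. The highest LOD of the RT-qPCR values over the genome was 2.37, and that of the array probe set was 2.67, both under the threshold.

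**Figure D3:**
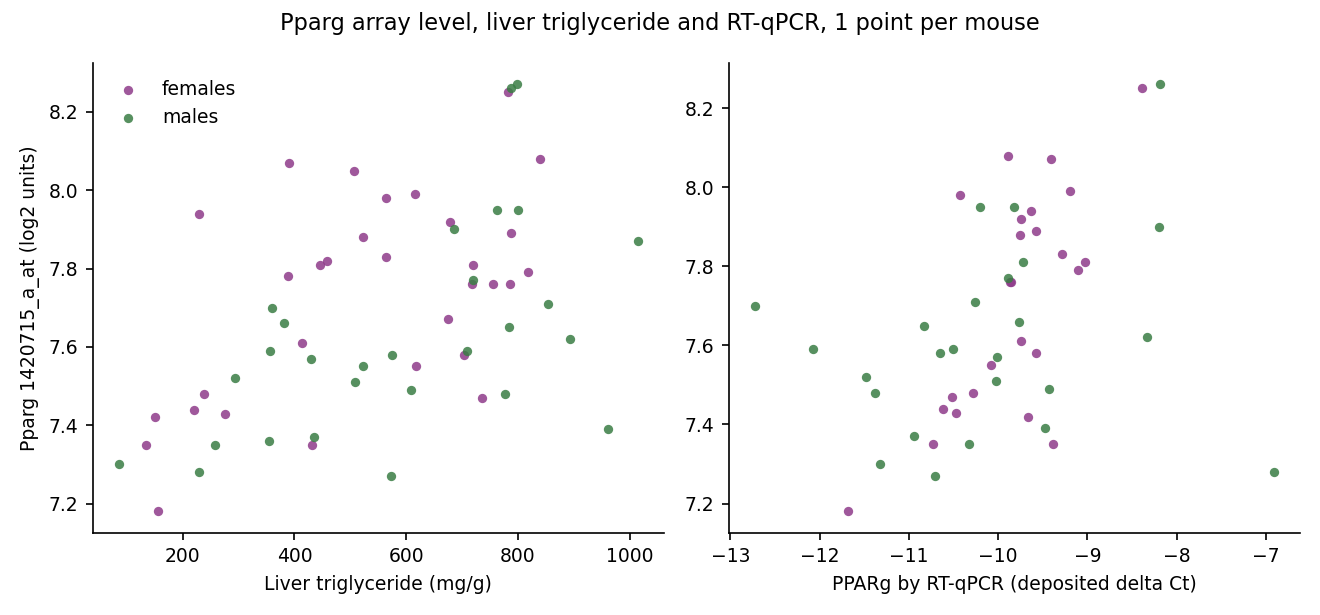
*Pparg* array level (y axis, log2 units) against liver triglyceride in mg/g (left, 59 mice) and against the RT-qPCR delta Ct (right, 50 mice), 1 point per mouse, coloured by sex. The level climbs with liver triglyceride in both sexes, and a male at -6.91 lies far from the others on the right.

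Of 10 PPARG target genes 8 were positively correlated with *Pparg*, with a median r of 0.42, where all probe sets had a median of -0.1 and 39.5% were positive. *Cidec* (r = 0.63) and *Cidea* (0.47), which enlarge lipid droplets, and *Plin2* (0.56), which coats them, were the closest. *Adipoq* (-0.39) and *Fabp4* (-0.37), both abundant in adipocytes, were the lowest. Both probe sets were dim here, at 4.98 and 6.86 in females where the array type has a median of 7.037. The *Cidec* probe set was dim as well, at 6.83 in females. *Adipoq* is also among the adipocyte markers below. Of the 16 probe sets on the list 2 rose with liver triglyceride, beside 0.107% of all probe sets. The mean level of the list had an r of 0.7 with *Pparg* and 0.65 with liver triglyceride. The genes most like *Pparg* were *Tkt*, the transketolase of the pentose phosphate pathway (r = 0.78), *Rcbtb2* (0.78) and 2010003K11Rik (0.72).

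Markers of other cells were set beside it. The mean of 3 adipocyte marker probe sets had an r of -0.57 with *Pparg* and -0.11 with liver triglyceride, and it ran from 6.17 to 6.66 in females and from 6.4 to 6.67 in males. For Kupffer cell markers r with *Pparg* was 0.29, for stellate cells 0.21, for sinusoidal endothelium 0.25, for bile duct -0.25, for hepatocytes 0.32 and for pancreatic acinar cells -0.32, and their part in the relation was not tested. In whole liver, fewer cells of a type and less RNA per cell cannot be told apart.

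*Ppard*, the third peroxisome proliferator-activated receptor, was read by 2 probe sets. For 1425703_at the highest LOD was 3.53, at 19.9 cM of Chromosome 13, with means of 5.9 ± 0.144 in genotype A, 5.78 ± 0.118 in heterozygotes and 5.95 ± 0.172 in B. The heterozygotes were lowest and the groups overlapped, and the genome-wide permutation p was 0.0774. Without the mice whose arrays looked crossed the LOD was 3.13, under the threshold. The other probe set, 1439797_at, had a highest LOD of 2.43.

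The constitutive androstane receptor (*Nr1i3*) and the pregnane X receptor (*Nr1i2*) sense drugs, steroids and bile acids and raise cytochrome P450 genes. They were the receptors that differed between the sexes, both higher in females, and their upstream windows are shown for that reason. *Nr1i3* lies on Chromosome 1 from 171213934 to 171218845 and *Nr1i2* on Chromosome 16 from 38248349 to 38294849. Neither window holds AGGTCA or TGACCT.
*Nr1i3* upstream window, chr1:171213720-171213969, plus strand: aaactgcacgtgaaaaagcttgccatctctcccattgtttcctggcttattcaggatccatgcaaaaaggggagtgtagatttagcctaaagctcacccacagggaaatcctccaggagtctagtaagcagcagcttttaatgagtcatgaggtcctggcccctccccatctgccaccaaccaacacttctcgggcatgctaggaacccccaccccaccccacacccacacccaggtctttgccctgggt
*Nr1i2* upstream window, chr16:38294825-38295074, minus strand: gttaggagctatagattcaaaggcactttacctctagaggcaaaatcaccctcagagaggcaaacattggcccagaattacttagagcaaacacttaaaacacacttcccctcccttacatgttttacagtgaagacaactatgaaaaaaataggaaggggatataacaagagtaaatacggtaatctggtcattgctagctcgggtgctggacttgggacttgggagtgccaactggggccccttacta

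*Nr1i3* probe set 1425392_a_at ran from 8.53 to 9.69 in 31 females with a median of 9.16 and from 8.4 to 9.22 in 29 males with a median of 8.92. The ranges overlapped, and all values above 9.22 were in females. The means were 9.15 ± 0.253 and 8.86 ± 0.245 (SD), a difference of 0.29 ± 0.0627 (SE) with an adjusted p of 0.00734 (limma). *Nr1i2* was read by 2 MOE430A probe sets that followed each other over the mice (r = 0.68). Probe set 1451807_at ran from 8.15 to 9.2 in females (median 8.59) and from 8.19 to 8.67 in males (median 8.47), a difference of 0.16 ± 0.0424 with an adjusted p of 0.0301. Probe set 1425723_at ran from 6.32 to 7.26 (median 6.81) and from 6.29 to 6.96 (median 6.68), a difference of 0.17 ± 0.0456 with an adjusted p of 0.0323. For 1451807_at the females also spread more widely, with an SD of 0.203 against 0.115.

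These were the 3 receptor probe sets of 87 that passed as higher in females (3.45%), where 1.03% of all probe sets did. No receptor probe set passed as higher in males, where 0.411% of all did. *Nr2c2* 1454167_at (-0.11, adjusted p = 0.0875) passed as higher in males without the mice whose arrays stood apart (-0.12, 0.0445) and without those whose arrays looked crossed (-0.11, 0.0479). Before adjustment 17 of 87 had a p under 0.05 (19.5%), beside 7196 of all 45037 (16%). With the first principal component of the array type as covariate the adjusted p was 0.0591 for *Nr1i3* and 0.132 and 0.13 for *Nr1i2*. That component, 20.4% of the variance of MOE430A, averaged 0.0481 ± 0.149 in females and -0.0515 ± 0.082 in males, so it differed by sex itself. With body weight as covariate *Nr1i3* passed (0.0348) and *Nr1i2* did not (0.0606 and 0.0631). No probe set on the marker lists of 7 cell types passed by sex. The bile duct list, with r = -0.43 to *Nr1i3*, ran from 6.41 to 6.68 in females and from 6.46 to 6.64 in males, and the adipocyte list, with r = -0.4, from 6.17 to 6.66 and from 6.4 to 6.67. Their part in the difference was not tested.

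**Figure D4:**
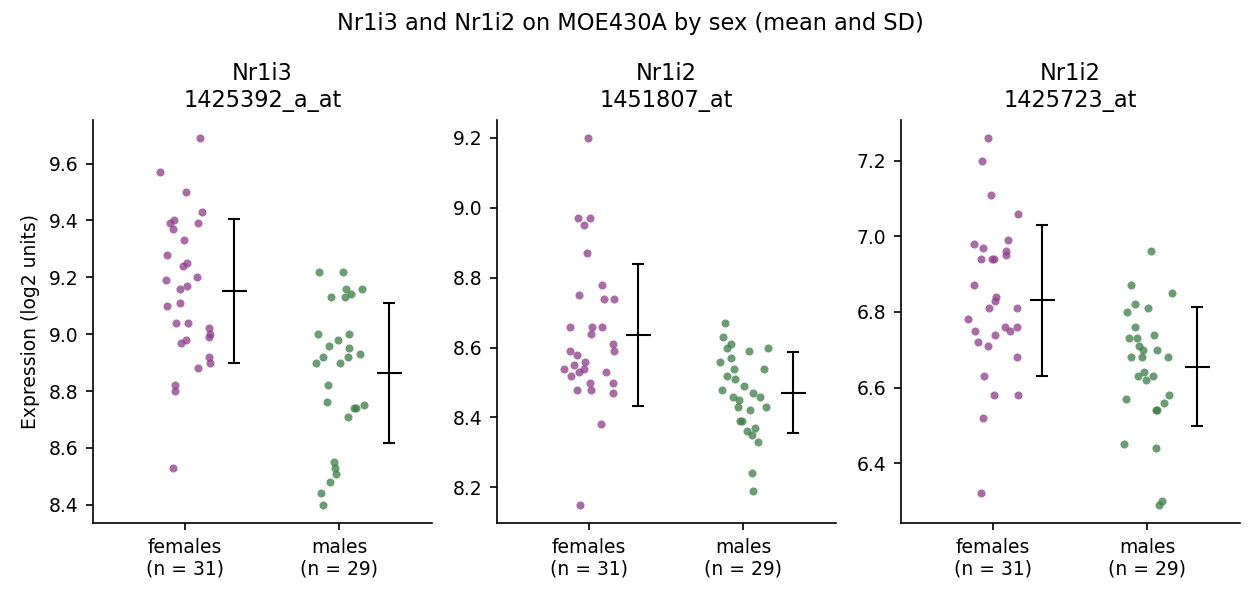
Expression (y axis, log2 units) of *Nr1i3* and of both *Nr1i2* probe sets in females and males (x axis), 1 point per mouse, with the mean and SD beside each group. Females lie higher on average by 0.29, 0.16 and 0.17, with ranges that overlap.

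Their shared target list was set beside both receptors. Of 13 genes 8 were positive with *Nr1i3* (median r = 0.1) and 8 with *Nr1i2* (median 0.05), beside medians of -0.08 and -0.03 for all probe sets. The highest with *Nr1i3* were *Cyp2b13* (0.43), the transporter *Abcc3* (0.36) and *Alas1* of heme synthesis (0.26), and the lowest were *Cyp3a11* (-0.31) and *Cyp2c55* (-0.23). *Cyp2b13*, a P450 known for its female pattern in mouse liver, was at 9.92 ± 1.22 in females and 8.61 ± 0.728 in males (difference 1.31 ± 0.252, adjusted p = 0.0018), and within each sex its r with *Nr1i3* was 0.2 and 0.23. It was the only probe set of 19 on the list to pass by sex (5.26%, beside 1.03% of all as higher in females), while 10 of the 19 reached a LOD of 3.4 (52.6%, beside 15.8% of all). With *Nr1i2* the highest were *Alas1* (0.38), *Slco1a4* (0.26) and *Cyp2b13* (0.23), and the lowest were *Gstm1* (-0.16) and, tied at -0.05, *Cyp2b10*, *Cyp3a11* and *Cyp2c29*. The P450 genes of one subfamily are close in sequence, and their probe sets may share signal.

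The genes most like *Nr1i3* were *Dmac2* (r = 0.76), *Pemt* (0.75), which makes phosphatidylcholine, and *Rnf167* (0.74). Those most like *Nr1i2* were *Lipg*, the endothelial lipase (0.65), *Abhd6* (0.63) and *Ak4* (0.61). For *Nr1i2* and *Lipg* r was 0.66 in females and 0.4 in males.

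*Nr1h3* encodes liver X receptor alpha, which senses oxysterols and raises genes of sterol export and lipogenesis. Its probe set 1450444_a_at ran from 7.31 to 8.65 with a median of 7.99, at 8.04 ± 0.248 in females and 7.89 ± 0.193 in males (difference 0.16 ± 0.0562, adjusted p = 0.141). The highest LOD was 2.6. Of its targets 6 of 11 were positive, with a median r of 0.04 beside -0.06 for all probe sets. The highest were *Lpcat3*, which remodels phospholipids (0.37), *Srebf1* (0.28) and *Fasn* (0.22), and the lowest were the sterol exporters *Abcg1* (-0.41) and *Abca1* (-0.34). On this list 3 of 17 probe sets rose with liver triglyceride (17.6%, beside 0.107% of all), and the mean level of the list had an r of 0.7 with *Pparg*. *Arfgap2* (r = 0.81), *Ppp4c* (0.81) and *Tmem179b* (0.8) were most like *Nr1h3*.

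*Nr1h4* encodes the bile acid receptor FXR, and *Nr0b2* encodes SHP, an orphan receptor without a DNA-binding domain that FXR raises and that represses bile acid synthesis. *Nr1h4* ran from 7.99 to 9.05 with a median of 8.48, and *Nr0b2* from 7.97 to 9.66 with a median of 8.59, a wider spread (SD 0.376 against 0.182). Neither passed by sex, at 0.05 ± 0.0461 (adjusted p = 0.664) and 0.05 ± 0.0947 (0.843), and the highest LOD scores were 2.1 and 1.97. Their r with each other was -0.02. *Nr1h4* was highest with the bile salt pump *Abcb11* (0.3), the phospholipid transporter *Abcb4* (0.27) and the bile acid importer *Slc10a1* (0.23). It was lowest with *Slc51a* (-0.28), whose probe set was dim, and *Fgf15* (-0.21). *Nr0b2* was highest with *Cyp8b1* (0.3), *Slc27a5* (0.29) and *Baat* (0.24) and lowest with *Abcb11* (-0.24) and *Cyp7a1*, the rate-limiting enzyme of bile acid synthesis (-0.11). *Bri3* (0.6), *Ppp1r15b* (0.58) and *Pak1ip1* (0.58) were most like *Nr1h4*, and *Pi4k2a* (0.62), *Irf3* (0.59) and *Cldn3* (0.59) most like *Nr0b2*.

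Among the steroid receptors, *Esr1*, estrogen receptor alpha, had 3 probe sets and they disagreed. For 1435663_at on MOE430B the highest LOD was 5.39, at 70.0 cM of Chromosome 17, while the gene lies on Chromosome 10. Genotype A ran from 3.95 to 4.53 (median 4.37, n = 11) and genotype B from 3.37 to 4.16 (median 3.95, n = 14). The means were 4.33 ± 0.191, 4.09 ± 0.244 in 35 heterozygotes and 3.88 ± 0.254, and the genome-wide permutation p was 0.00102, with a pooled Haley-Knott adjusted p of 0.168 over all probe sets. This probe set was dim, with a mean of 4.09 where the array type has a median of 6.173. For 1421244_at on MOE430A the highest LOD was 4.24, at 35 cM of Chromosome 2, with means of 6.95 ± 0.103 in 10 mice of genotype A, 6.8 ± 0.101 in 33 heterozygotes and 6.85 ± 0.126 in 17 of B (permutation p = 0.0196). Of the 10 mice of genotype A 2 were females and 8 males, and with sex as covariate the LOD was 3.13, under the threshold, as it was at markers alone (3.29). With the first principal component it was 3.98, on Chromosome 1. The pooled Haley-Knott adjusted p of 1421244_at was 0.48. For 1460591_at the highest LOD was 2.7.

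By sex the *Esr1* probe sets went both ways and none passed. For 1460591_at females were at 8.47 ± 0.309 and males at 8.23 ± 0.315 (difference 0.23 ± 0.0782, adjusted p = 0.11), and for 1421244_at at 6.8 ± 0.116 and 6.88 ± 0.115 (-0.08 ± 0.03, 0.192). With 1421244_at the closest genes were *Upk1a* (0.74), *Ifi209* (0.74) and *Nup62* (0.73).

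*Nr3c1*, the glucocorticoid receptor, had 6 probe sets. The lead probe set, 1421867_at, ran from 7.49 to 8.14 with a median of 7.83, did not pass by sex (0.06 ± 0.0437, adjusted p = 0.51) and had a highest LOD of 2.04. The dim 1431378_at reached 3.45 at 9.0 cM of Chromosome 4, with means of 3.17 ± 0.0976, 3.19 ± 0.0917 and 3.08 ± 0.0683 for A, H and B (permutation p = 0.108), and fell to 3.35 without the mice whose arrays stood apart and to 3.21 without those whose arrays looked crossed. Of 13 glucocorticoid targets 8 were positive (median r = 0.11, beside -0.12 for all probe sets). *Tdo2*, which degrades tryptophan, was the highest (0.63), inside the -0.45 to 0.65 that held the central 95% of all probe sets. Next were *G6pc*, *Tsc22d3* and the dim *Sgk1* (0.17 each), and *Per1* (-0.29) and *Lcn2* (-0.17) were the lowest. On that list 2 of 25 probe sets fell with liver triglyceride (8.0%, beside 0.0977% of all). *Impa1* (0.82), *Slmap* (0.81) and *Psmc6* (0.81) were most like *Nr3c1*.

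*Nr3c2*, the mineralocorticoid receptor, was read by 1435991_at alone, with a LOD of 3.8 at 0.0 cM of Chromosome 10. Its 16 mice of genotype A were at 5.8 ± 0.226, 33 heterozygotes at 5.5 ± 0.243 and 11 of B at 5.44 ± 0.282, and the permutation p was 0.0444. With 145 markers its highest LOD was 2.35, on Chromosome 13, and with the first principal component as covariate 3.25. *Nr5a2*, the receptor LRH-1 of bile acid and cholesterol genes, reached 4.0 with 1449706_s_at at 50.0 cM of Chromosome 4 (6.6 ± 0.119, 6.53 ± 0.145 and 6.39 ± 0.158 for A, H and B, permutation p = 0.0207). Its other 3 probe sets lay between 2.62 and 2.73. Without the mice whose arrays stood apart the LOD of 1449706_s_at was 2.52, and without those whose arrays looked crossed it was 2.84, both under the threshold. The pooled Haley-Knott adjusted p over all probe sets was 0.595 for *Nr3c2* 1435991_at and 0.499 for *Nr5a2* 1449706_s_at.

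The remaining linked probe sets were of *Nr4a2* and *Nr2c1*, orphan receptors, of the thyroid hormone receptor *Thra*, of the shared partner *Rxra* and of *Nr2f2*, which encodes COUP-TFII. *Nr4a2* had 2, at 3.9 on Chromosome 13 (3.02 ± 0.0911, 3.03 ± 0.0846 and 2.92 ± 0.07 for A, H and B, permutation p = 0.0414) and at 3.75 on Chromosome 12 (4.11 ± 0.124, 4.17 ± 0.113 and 4.3 ± 0.134, p = 0.056). *Nr2c1* also had 2, with 1418605_at at 3.75 on Chromosome 13 (6.43 ± 0.0931, 6.45 ± 0.111 and 6.55 ± 0.0917, p = 0.0793) and 1449157_at at 3.7 on Chromosome 12 (6.09 ± 0.106, 6.0 ± 0.0888 and 6.08 ± 0.115, p = 0.154). The highest Haley-Knott score of 1449157_at, to which its p belongs, was 3.2. For the *Nr4a2* probe set of Chromosome 13 the pooled Haley-Knott adjusted p was 0.571. These *Nr4a2* and *Nr2c1* probe sets were all dim. A further *Nr2c1* probe set, 1439490_at, lay just under the threshold at 3.36, also on Chromosome 13. *Thra* 1454675_at reached 3.52 on Chromosome 8 (7.62 ± 0.135, 7.46 ± 0.0869 and 7.56 ± 0.109, p = 0.0863). *Rxra* 1454773_at reached 3.45 at 20.0 cM of Chromosome 13 (permutation p = 0.0834), beside the *Ppard* peak at 19.9 cM. *Nr2f2* 1416159_at, just inside the threshold, reached 3.4 on Chromosome 14 (6.98 ± 0.159, 7.17 ± 0.128 and 7.07 ± 0.134, permutation p = 0.0888). At the Chromosome 13 peak the heterozygotes were highest for *Rxra* (9.5 ± 0.132, against 9.32 ± 0.15 and 9.32 ± 0.192) and lowest for *Ppard*. Without the mice whose arrays stood apart, and without those whose arrays looked crossed, the highest LOD of *Rxra* was on Chromosome 4 (3.92 and 4.1). Under the same omissions the *Nr4a2* probe set of Chromosome 13 had 3.12 and 3.11, and *Thra* had 3.03 and 3.74. *Thra* had 2.21 with 145 markers, *Nr2c1* 1449157_at had 2.13 at markers alone, on Chromosome 10, and *Nr2f2* had its highest LOD on Chromosome 1 in 6 of 7 other scans. The r of *Rxra* with *Ppard* over the 60 mice was -0.56.

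The other receptor genes had no probe set at the threshold. *Rora*, a receptor of the clock, had 9 probe sets with highest LOD scores of 2.06 to 3.24. Its probe set 1458129_at, named after its values were seen, had the smallest unadjusted p of the family with glucose (slope 0.106 ± 0.0231 per SD, p = 2.05e-05, adjusted p = 0.266), a slope of -0.0781 ± 0.0215 with log10 insulin (0.176) and one of 0.0857 ± 0.022 with log10 plasma triglyceride (1.0). The other 8 had r of -0.23 to 0.29 with glucose, against 0.44 for 1458129_at. *Hnf4g*, *Rara*, *Rarb*, *Rarg*, *Rxrb*, *Rxrg*, *Thrb*, *Vdr*, *Esrra*, *Nr2c2*, *Nr2f1*, *Nr2f6*, *Nr4a1* and *Nr6a1* reached at most 3.23.

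The thyroid hormone receptors did not pass by sex, with *Thrb* at -0.02 ± 0.0333 (adjusted p = 0.831), whereas 5 of the 23 probe sets of their target list were higher in females (21.7%, beside 1.03% of all). *Me1*, the malic enzyme that supplies NADPH, stood at 11.03 ± 0.508 in females and 10.41 ± 0.445 in males (0.61 ± 0.12, adjusted p = 0.00213), and *Dio1*, which deiodinates thyroxine, at 10.41 ± 0.3 and 10.05 ± 0.379 (0.36 ± 0.0852, 0.0129). Only 2 of 7 target genes were positive with *Thrb*, *Klf9* and *Hr* (0.08 each), followed by *Dio1* and *Idh3a* (-0.11 each), and the lowest were *Me1* (-0.26) and *Gpd2* (-0.25). With *Rarb*, 2 of 5 retinoic acid targets were positive, *Stra6* (0.21) and *Lrat* (0.19), followed by *Cyp26a1* (-0.1), with *Crabp2* (-0.19) and *Dhrs3* (-0.11) the lowest. Both medians, -0.11 and -0.1, lay below those of all probe sets, 0.1 and 0.06. The *Stra6*, *Lrat* and *Crabp2* probe sets were dim, at 6.81, 4.56 and 5.08 in females.

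**Figure D5:**
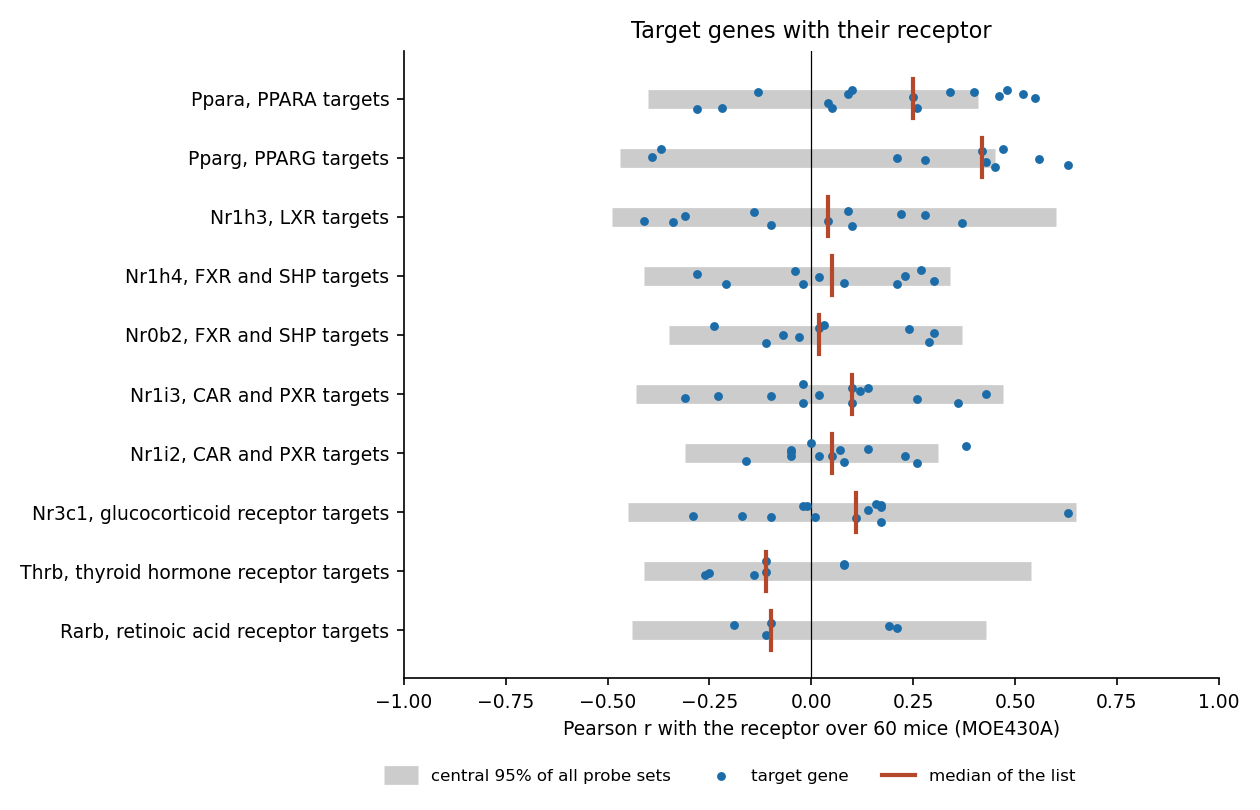
Pearson r over 60 mice (x axis) of each target gene with its receptor (rows), all on MOE430A, with a bar at the median of the list and a grey band for the central 95% of all probe sets. The PPARG and PPARA lists have the highest medians, 0.42 and 0.25, and the medians of the other lists lie near 0. Targets lie outside the band only with *Ppara*, with *Pparg* and, for *Alas1*, with *Nr1i2*. The FXR and SHP list holds *Cyp7a1*, of the bile acid synthesis that SHP represses, so its median mixes directions.

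The coregulators through which the receptors act were counted in the same way. Of 61 probe sets from 21 coactivator, corepressor and chaperone genes, 1 was higher in females, none was higher in males, none passed with liver triglyceride and 10 reached a LOD of 3.4. These are 1.64% by sex, beside 1.03% of all probe sets, and 16.4% by linkage, beside 15.8%.

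Among the receptors themselves, over 465 pairs of the 31 genes with a MOE430A probe set, r ran from -0.63 to 0.79 with a median of 0.01. Values of 0.5 or more made up 3.23% of the pairs, beside 3.31% of the pairs of all 12393 genes on the array. The highest was *Nr1h3* with *Nr2f6* (0.79), then *Nr2f2* with *Nr5a2* and *Nr3c1* with *Nr5a2* (0.66 each). *Ppara* and *Pparg* had an r of 0.54, and the lowest value was that of *Rora* with *Rxrb* (-0.63). Of the 53 MOE430A probe sets 15 had an r of 0.5 or more in size with the first principal component of that array type, which the pairs share.

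Probe sets of 1 gene often went separate ways. Over all such pairs the median r was 0.11, the range was -0.43 to 0.86, and 24 pairs reached 0.5, so most did not. The *Ppara* probe sets of MOE430B were at the top and 2 *Rora* probe sets, 1441085_at and 1455165_at, at the bottom. Many pairs join the array types, which were normalized separately, and many hold a dim probe set. Pairs from genes outside the family were not counted, so whether receptor genes differ in this from other genes was not tested.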

How the data were processed

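Livers of 60 F2 mice were measured on 120 arrays. The authors had picked these mice from a larger cross by their genotypes, so they are not a random sample of it. The submitters' processing notes name MAS5 and RMA, without versions, and what the authors deposited is log2 expression. The array types were normalized separately. Insulin was taken as the log10 values the authors deposited, and plasma triglyceride was turned to log10 here. RT-qPCR values and mouse phenotypes were used as deposited. Precision is limited by how many mice were arrayed. Nothing in the labels says whether RNA was prepared in batches.

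A probe set took its gene from the platform annotation where that gives 1 symbol. The members, the gene lists and the tests were chosen with earlier results of these data known. Linkage followed the interval mapping the methods name, written here in Python 3.11.15 (numba 0.67.0, pandas 2.3.3, numpy 2.4.6, scipy 1.17.1): a hidden Markov model (error rate 0.0001) evaluated at 545 points, the markers and a grid of 5.0 cM, with EM (tolerance 0.0001) and no covariate. Sex and phenotype slopes (sex as covariate) were fitted over all 45037 probe sets with limma 3.58.1 in R 4.3.3 and adjusted by Benjamini-Hochberg. Both were tested on simulated data. Single relations had 100000 permutations. Figures were drawn with matplotlib 3.10.9. Where a gene had several probe sets, the brightest on MOE430A was used for correlations.

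Named were up to 12 member probe sets with the highest LOD at 3.4 or greater, members past an adjusted p of 0.05 by sex or phenotype, 9 liver receptors in every case, the 3 highest and 2 lowest target genes of each list and the 3 genes most like each of the 9. The other linked probe sets, of *Rxra* and *Nr2f2*, were named as well. Alternatives changed the scan, the markers, the covariates, the mice, the scale and a filter on dim probe sets.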

Additional observations from a re-analysis of the deposited data

How the results depend on the processing

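The count of receptor probe sets with linkage, 14 (16.1%, beside 15.8% of all probe sets), was 13 by Haley-Knott regression (14.9% of all), 11 at markers alone (5622 of all 45037) and with 145 markers (13.3%), 13 with sex (16.3%) and 18 with the first principal component as covariate (16%), 21 without the mice whose arrays stood apart (17.7%) and 18 without those whose arrays looked crossed (17.8%). Of the 14, the last 3 fits held 8, 10 and 10 at a LOD of 3.4 on any chromosome. In the fit with the first principal component the peak of *Esr1* 1421244_at had moved to Chromosome 1. In both fits that left out mice, that of *Rxra* had moved to Chromosome 4 and that of *Nr2f2* to Chromosome 1. The count was 2 at a LOD of 5 and 4 among probe sets at or above the median level. Of the 12 linked probe sets with the highest LOD, 4 kept a LOD of 3.4 in all 7 other scans. They were *Ppara* 1457721_at, *Esr1* 1435663_at, *Nr4a2* 1433423_at on Chromosome 12 and *Nr2c1* 1418605_at on Chromosome 13. *Ppara* 1457721_at ran from 6.72 to 9.61 and *Esr1* 1435663_at from 4.24 to 5.46. The count by sex, 3, was 1 with the first principal component (then a *Rora* probe set, higher in males), 1 with body weight (*Nr1i3*) and 6 without mice 167, 474 and 559, when *Nr5a2* and *Nr1h3*, higher in females, and *Nr2c2*, higher in males, also passed. Past the pooled permutation threshold there were 0 receptor probe sets by interval mapping and 1 by Haley-Knott scores, an alternative chosen after seeing the data, as were the LOD of the *Ppara* difference and the reading of each *Ppara* probe set with the targets. The *Pparg* slope on liver triglyceride ran from 0.132 to 0.165 with adjusted p-values of 0.00108 to 0.0304. The r between *Pparg* array and RT-qPCR was 0.22 in males (permutation p = 0.283). *Pparg* had 1 probe set, so no other could be tried. No paired analysis was possible because each mouse number joins an MOE430A and an MOE430B array, and the array types were not compared by level. Correlations over the mice did join probe sets of both array types, as for *Ppara* and its targets.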
